A study of Homo sapiens with 8 samples.

Results

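The interleukin-1 (IL-1) family members described here are 10 genes, of the 60617 genes in the deposited count table. They are the cytokines IL1A, IL1B, IL36B, IL36G, IL33 and IL18, the receptor antagonist IL1RN, and the receptor chains IL1R1, IL1R2 and IL1RAP. IL1B was chosen by its measured level, for the largest rise between the untreated lines, and the other members were added by family, so all member values from the untreated lines are given as a description with no test. 8 of the 10 members passed the filter on low counts; IL36B and IL36G did not and are given as counts. The 8 RNA libraries come from MCF-10A, a widely used line of non-tumorigenic breast epithelial cells of human origin. A line named Empty and a line named NeuT were each left untreated or given 1 µM JG-98, an inhibitor of Hsp70 chaperones, for 12 h, with 2 libraries in each of the 4 groups. What NeuT carries is not stated in the labels, nor whether either line is a single clone. All groups were grown in the same medium with horse serum, epidermal growth factor, hydrocortisone, insulin and cholera toxin. The labels do not say that replicates came from separate cultures, so p-values measure the spread between these libraries, which may be technical.

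IL-1α (IL1A) and IL-1β (IL1B) bind the receptor IL1R1, which recruits the accessory chain IL1RAP and signals through MyD88 and IRAK kinases to NF-κB. IL1RN occupies IL1R1 without signalling, and IL1R2 is a decoy that binds ligand but has no signalling domain. IL-1α is active as its precursor and is held ready in many epithelia, whereas IL-1β and IL-18 are made as inactive precursors that caspase-1 cleaves, with myeloid cells as the classical source of IL-1β. IL-33 signals through IL1RL1 and the IL-36 cytokines through IL1RL2, and both of those receptors also pair with IL1RAP.

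Total counts per library ranged from 37341458 in Empty with JG-98 replicate 1 to 56861971, and a count of 0 allowed at most 0.0787 CPM (counts divided by the TMM-scaled library size) in the shallowest library. Replicates differed by a median of 0.0944 to 0.156 on the log2 scale, the most in NeuT with JG-98. All 8 breast epithelial markers were above 3 counts in every library, and their summed level was 17873 to 18570 CPM in Empty and 21029 to 21586 CPM in NeuT. Between the treated lines 5 of them were higher in NeuT, and EPCAM, KRT17 and KRT14 were lower, with log2 differences of -1.09, -0.41 and -0.19 (edgeR adjusted p = 6.1e-10, 6.3e-06 and 0.00700). In this comparison 41.7% of all tested genes were called at an adjusted p under 0.05, 21.7% higher and 20.0% lower. Of the 9 myeloid markers, 4 were above 3 counts in both libraries of each group, with a summed level of 25.4 to 29.0 CPM in Empty and 32.1 to 35.2 CPM in NeuT. TYROBP had 0 counts in every library, SPI1 at most 1 and PTPRC at most 4, while CD14 and CSF1R were present in both lines and higher in treated NeuT, with log2 differences of 1.06 and 0.22 (edgeR adjusted p = 2.6e-06 and 0.0458). ITGAM and LYZ, the remaining myeloid markers above 3 counts, pointed lower in treated NeuT and were not called. Their log2 differences were -0.81 and -0.76 (edgeR adjusted p = 0.349 and 0.334). The 6 fibroblast markers summed to 8.52 to 9.76 CPM in Empty and 68.4 to 83.0 CPM in NeuT, carried by DCN, which encodes the proteoglycan decorin and had 124 to 204 counts in Empty libraries and 3372 to 4189 in NeuT libraries. The 5 endothelial markers summed to 12.3 to 17.6 CPM in Empty and 9.55 to 11.4 CPM in NeuT, nearly all from PECAM1 and KDR, which were lower in treated NeuT (log2 differences -0.59 and -0.93, edgeR adjusted p = 0.00345 and 0.0139). CDH5 and TEK, at 0 to 7 counts in Empty libraries and 13 to 34 in NeuT libraries, had fitted differences of 2.63 and 2.26, a description only since both passed the filter on low counts through NeuT alone, and VWF was not called at 2.15. The part of cells expressing CD14, CSF1R, DCN, CDH5 or TEK in the differences between the lines was not tested. In bulk RNA, more cells that express a gene and more of its RNA per cell cannot be told apart.

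Because the results turn on IL1A and IL1B, 3 stretches at the 5′ ends of these neighbouring genes on chromosome 2 are shown first. The first and the third lie directly before the gene's span in the count table, and the second lies inside the IL1A span. RefSeq start windows (GRCh38.p14) were found for 8 of the 10 members, in 16 windows; IL36B and IL18 were not matched. Each sequence is from the minus strand, which both genes use, written 5′ to 3′. Capitals mark the match to TATAAA (the letters of a TATA box) in the first, 239 bases before the start of its RefSeq window, to TGANTCA (the AP-1 site) in the second, 12 bases before that same start, and to TTGCNNAA (a C/EBP site) in the third, 215 bases before the start. The TATAAA matches of IL1R2 and IL1RN lie nearer, one of each at 30 bases. The first covers chr2:112784591-112784743, the second chr2:112784494-112784516 and the third chr2:112836904-112837029.
IL1A upstream: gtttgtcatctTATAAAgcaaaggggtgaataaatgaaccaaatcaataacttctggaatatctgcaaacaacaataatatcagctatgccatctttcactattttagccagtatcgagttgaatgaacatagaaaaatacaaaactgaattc
IL1A AP-1 match: gcgaagaagacTGACTCAggctt
IL1B upstream: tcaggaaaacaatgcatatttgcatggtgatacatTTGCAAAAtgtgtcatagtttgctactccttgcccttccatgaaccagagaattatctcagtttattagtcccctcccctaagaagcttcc

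Both strands of the 250 bases before each annotated start were searched. The AP-1 letters lay in 3 of the 16 member windows, those of IL1A and IL1RN, and in 6.57% of the 35116 windows of all genes. The IL1A windows with a match overlap and share the match shown above, so that site counts in each of them. It lies 12 bases before the start named above and 105 bases before another annotated IL1A start, which has a further match at 55 bases. The C/EBP letters lay in 1 member window, that of IL1B, and in 9.05% of all windows. TATAAA lay in windows of IL1A, IL1R1, IL1R2 and IL1RN and in 10.7% of all windows. A match to the κB site of NF-κB lay in 1 member window, that of IL1R2, and in 9.96% of all windows. The AP-1 letters read the same on both strands and such a match was counted once within a window, and no pair of different motifs shared bases in a member window. A match is a description of letters, not of a bound site.

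The lines differed in nearly the whole set under JG-98. In the 4 treated libraries, which played no part in choosing IL1B, 7 of the 8 tested members were higher in NeuT and 1, IL18, was lower (edgeR quasi-likelihood test, adjusted p under 0.05). The background was high: 41.7% of all tested genes were called in this comparison, 21.7% higher and 20.0% lower. IL1B and IL33 had fewer than 10 counts in each Empty library and passed the filter on low counts only through NeuT, where they are high, so their part of the count is a description only. Of the other 6 tested members, 5 were higher and 1 lower. All members were chosen with the line difference known. The p-values between the treated lines, here and below, are therefore not independent of that choice. In the untreated libraries, which chose IL1B, the fitted difference was above 0 for 7 of the 8 members and below 0 for IL18, with no test. Of all tested genes 42.0% were called there, which is a different measure from a count of signs, and nothing is read from that count.

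IL1B was almost silent in Empty and abundant in NeuT. Its counts were 3 and 4 in untreated Empty, 6 and 7 in Empty with JG-98, 1943 and 1786 in untreated NeuT, and 2113 and 2640 in NeuT with JG-98. Every NeuT library therefore lay far above every Empty library, and the Empty counts were at or just above the floor of 3. Under JG-98 the summed counts gave a 327-fold difference between the lines (exact 95% interval 191 to 615, counting error only), and the fitted log2 difference was 8.33 ± 0.196 (SE). Both are a description, since the gene was picked for a difference between the lines and passed the filter on low counts only through NeuT. In the untreated lines, which chose the gene, the ratio was 558 with an interval of 271 to 1390.

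IL1A, the other agonist of IL1R1, was present in both lines. Its level was 2.54 and 2.49 CPM in untreated Empty, 6.69 and 5.44 CPM in Empty with JG-98, 89.9 and 81.7 CPM in untreated NeuT, and 159 and 213 CPM in NeuT with JG-98. No 2 groups overlapped, and the order rose from untreated Empty to treated NeuT. Under JG-98 NeuT stood 31.1-fold above Empty, or 4.96 ± 0.162 on the log2 scale (SE; edgeR adjusted p = 1.5e-08). The untreated difference was 5.09 ± 0.175 on the same scale.

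The antagonist IL1RN differed less between the lines than the agonist IL1A. It measured 25.0 and 25.2 CPM in untreated Empty, 33.3 and 31.7 CPM in Empty with JG-98, 81.0 and 78.8 CPM in untreated NeuT, and 76.6 and 87.1 CPM in NeuT with JG-98. The lines did not overlap, and the treated and untreated NeuT libraries did. Under JG-98 the log2 difference between the lines was 1.33 ± 0.0712 (SE; edgeR adjusted p = 1.5e-10), and without it 1.67 ± 0.0718. The 95% intervals of the treated log2 differences, 1.18 to 1.48 for IL1RN and 4.59 to 5.33 for IL1A, do not meet. IL1RN makes secreted and intracellular forms from one gene, and gene-level counts cannot separate them.

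**Figure D1:**
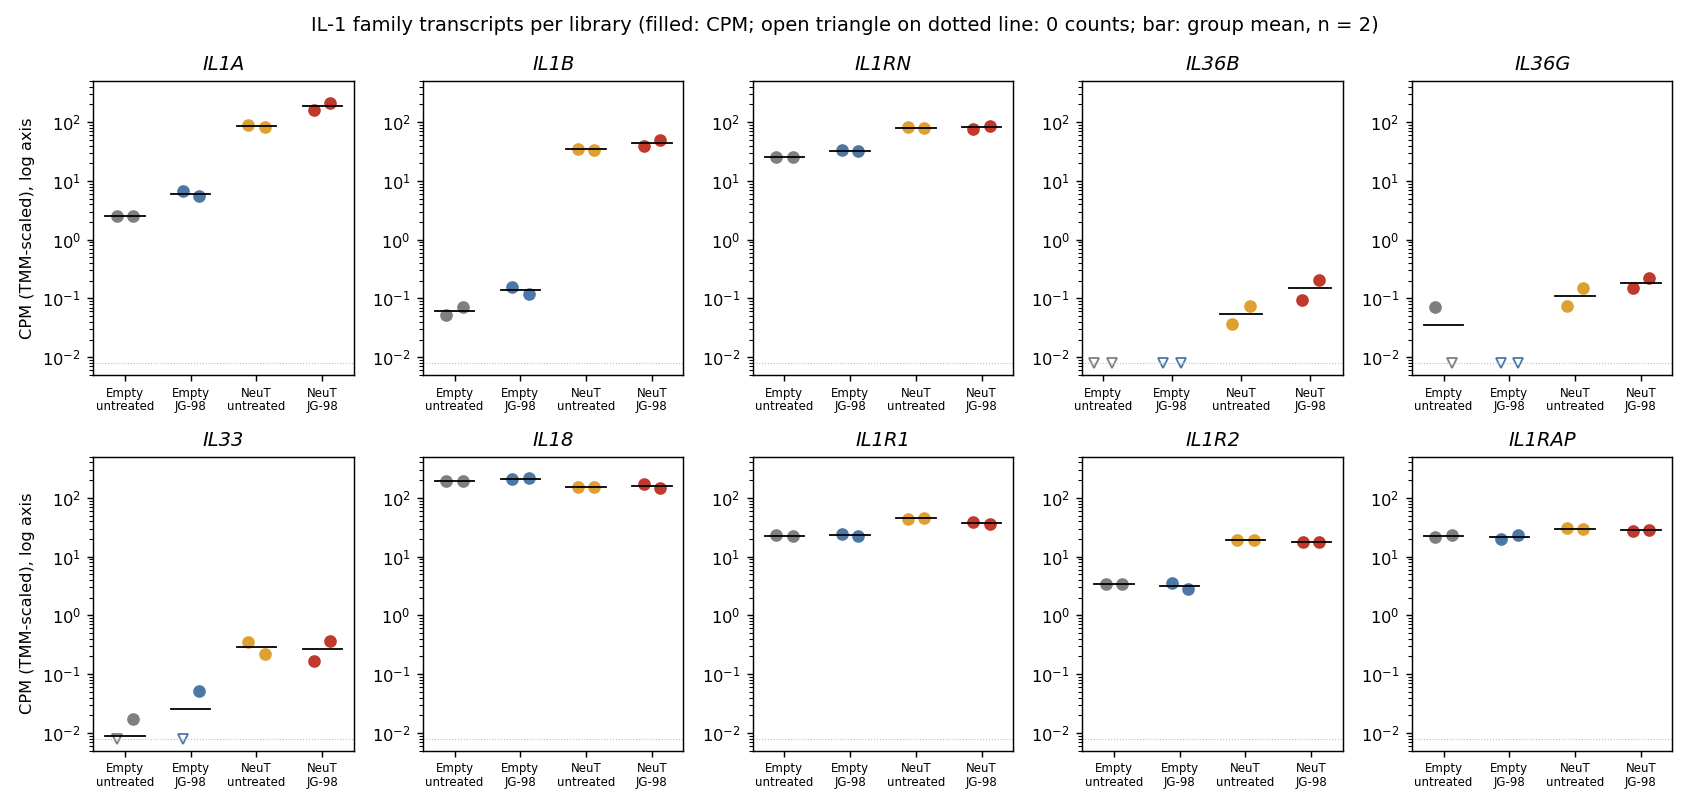
Level of each of the 10 members in each of the 8 libraries, in CPM on a log axis, 1 panel per gene; points are libraries, bars are group means (n = 2), and open triangles mark 0 counts. IL1B lies at 0.0528 to 0.157 CPM in Empty and at 33.1 to 48.9 CPM in NeuT, whereas IL18 is the member that is lower in NeuT.

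IL18 ran the other way. This cytokine, constitutively made by many epithelia, was at 197 and 197 CPM in untreated Empty, 209 and 216 CPM in Empty with JG-98, 151 and 153 CPM in untreated NeuT, and 171 and 148 CPM in NeuT with JG-98. All NeuT libraries were below all Empty libraries. The log2 difference was -0.42 ± 0.0628 between the treated lines (SE; edgeR adjusted p = 4.1e-05) and -0.37 ± 0.0628 between the untreated lines.

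The remaining ligands were close to the detection limit. IL33, an alarmin stored in the nucleus, had 0 and 1 counts in untreated Empty, 0 and 3 in Empty with JG-98, 19 and 12 in untreated NeuT, and 9 and 20 in NeuT with JG-98. Summed counts differed 8.65-fold between the treated lines, with an exact 95% interval of 2.68 to 44.4 for counting error. The fitted log2 difference of 3.05 ± 0.975 (SE) is a description only, since the gene passed the filter on low counts only through NeuT. The value was unstable to single libraries. Without Empty with JG-98 replicate 1 the difference was 2.34, and without NeuT with JG-98 replicate 2 it was 2.37. Without Empty with JG-98 replicate 2, which held the 3 counts, the difference was 6.83.

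IL36B and IL36G encode IL-36 cytokines typical of squamous epithelium. IL36B had 0 counts in all 4 Empty libraries, 2 and 4 in untreated NeuT, and 5 and 11 in NeuT with JG-98. IL36G had 4 and 0 counts in untreated Empty, 0 and 0 in Empty with JG-98, 4 and 8 in untreated NeuT, and 8 and 12 in NeuT with JG-98. Set against a floor of 3 counts over the treated Empty group, IL36B was at least 4.77-fold higher and IL36G at least 5.97-fold higher in treated NeuT. Neither gene entered the test, and at 12 counts or fewer per library neither ratio says more than that reads were found.

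The receptor chains were all higher in NeuT, the decoy by the most. IL1R2, the decoy, measured 3.35 and 3.35 CPM in untreated Empty, 3.54 and 2.85 CPM in Empty with JG-98, 19.3 and 19.4 CPM in untreated NeuT, and 18.0 and 17.7 CPM in NeuT with JG-98. Its log2 difference between the treated lines was 2.50 ± 0.116 (SE; edgeR adjusted p = 2.7e-11), a 5.66-fold difference, and 2.53 ± 0.112 between the untreated lines. All 4 NeuT libraries lay between 17.7 and 19.4 CPM, with or without the drug.

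IL1R1, the signalling receptor, was at 23.0 and 22.5 CPM in untreated Empty, 23.9 and 22.6 CPM in Empty with JG-98, 43.0 and 46.1 CPM in untreated NeuT, and 39.3 and 36.1 CPM in NeuT with JG-98. The treated lines differed by 0.70 ± 0.0757 on the log2 scale (SE; edgeR adjusted p = 1.0e-06), and the untreated lines by 0.97 ± 0.0748. The lines did not overlap, and within NeuT both treated libraries were below both untreated ones.

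IL1RAP, the chain shared by the receptors for IL-1, IL-33 and IL-36, had 21.8 and 23.2 CPM in untreated Empty, 20.0 and 23.0 CPM in Empty with JG-98, 30.5 and 29.0 CPM in untreated NeuT, and 27.3 and 28.8 CPM in NeuT with JG-98. The treated lines differed by 0.38 ± 0.0844 on the log2 scale (SE; edgeR adjusted p = 0.00150), the smallest rise of the set, and the untreated lines by 0.40 ± 0.0832. For IL1RAP, 4.63% of exonic bases are shared with another annotated gene on the same strand.

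**Figure D2:**
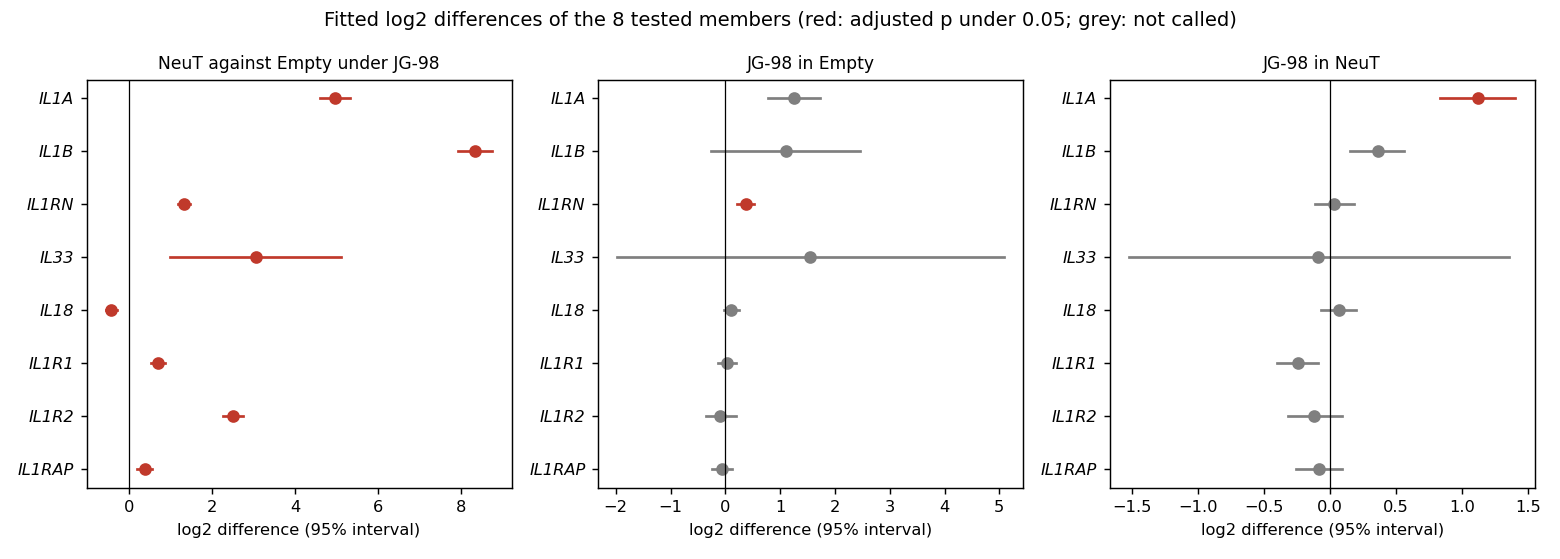
Log2 differences (x) of the 8 tested members with 95% intervals, in 1 panel each for NeuT against Empty under JG-98, JG-98 in Empty and JG-98 in NeuT; red points were called and the x axes differ in range. The line differences span -0.42 for IL18 to 8.33 for IL1B, while the drug effect of IL1A is 1.25 in Empty and 1.12 in NeuT and those of the receptors lie between -0.24 and 0.03. IL1B and IL33 passed the filter on low counts only through NeuT, so their red line differences are a description only.

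Levels of different genes were compared as CPM per kilobase of exon. In untreated Empty the order was IL18 at 75.7, IL1RN at 7.71, IL1R1 at 3.19, IL1RAP at 1.95, IL1A at 1.18 and IL1R2 at 1.13 CPM per kilobase, with the other members at 0.0257 or below. Neighbours in that order did not overlap in their 2 libraries, except IL36G with IL1B and IL33 with IL36B. In untreated NeuT the order was IL18 at 58.4, IL1A at 40.4, IL1RN at 24.5, IL1B at 11.1, IL1R2 at 6.55, IL1R1 at 6.25 and IL1RAP at 2.57 CPM per kilobase. In NeuT with JG-98 IL1A came first at 87.6, ahead of IL18 at 61.2, IL1RN at 25.1 and IL1B at 14.2 CPM per kilobase, and IL1A and IL18 did not overlap between libraries.

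The makeup of the ligand transcripts therefore differed between the lines. Over the 6 cytokines and IL1RN, per kilobase, IL18 made up 89.4% in both untreated Empty libraries and IL1A 1.41% and 1.39%. In untreated NeuT, IL18 made up 42.4% and 44.4%, IL1A 30.9% and 29.1%, IL1RN 18.2% and 18.3%, and IL1B 8.38% and 8.08%. In NeuT with JG-98, IL1A reached 42.4% and 50.1%. The summed level was 84.7 and 84.6 CPM per kilobase in untreated Empty, 93.8 and 95.1 in Empty with JG-98, 137 and 132 in untreated NeuT, and 177 and 200 in NeuT with JG-98.

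Antagonist and decoy moved differently against their partners. The ratio of IL1RN to the sum of IL1A and IL1B, per kilobase, was 6.35 and 6.47 in untreated Empty, 3.19 and 3.75 in Empty with JG-98, 0.462 and 0.492 in untreated NeuT, and 0.268 and 0.231 in NeuT with JG-98. Antagonist RNA thus exceeded agonist RNA in every Empty library and fell short of it in every NeuT library. The ratio of decoy IL1R2 to IL1R1 was 0.351 and 0.359 in untreated Empty, 0.357 and 0.303 in Empty with JG-98, 1.08 and 1.01 in untreated NeuT, and 1.11 and 1.18 in NeuT with JG-98. The members were chosen with the line difference known, so these ratios are a description with no test.

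**Figure D3:**
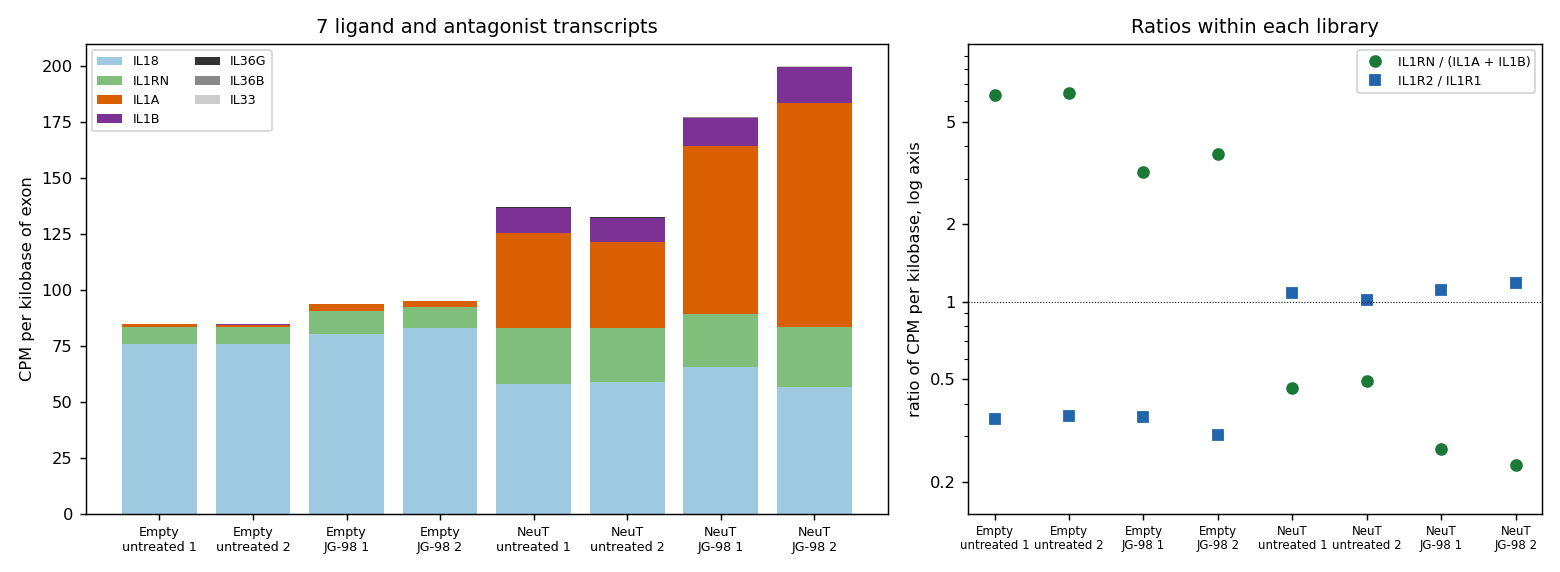
Left, stacked bars of the 7 ligand and antagonist transcripts in each library, in CPM per kilobase of exon; right, the ratios of IL1RN to IL1A plus IL1B and of IL1R2 to IL1R1 in each library on a log axis. The IL1RN ratio is above 1 in Empty (3.19 to 6.47) and below 1 in NeuT (0.231 to 0.492), and the IL1R2 ratio is 0.303 to 0.359 in Empty and 1.01 to 1.18 in NeuT.

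JG-98 changed few members. In NeuT, 1 of 8 tested members was called, IL1A, where 3.01% of all tested genes were called and 2.01% were higher. IL1A rose 2.17-fold, or 1.12 ± 0.127 on the log2 scale (SE; edgeR adjusted p = 0.00216), and the authors' deposited table gives 1.10 with an adjusted p of 4.2e-05. The call held in all 15 alternative analyses, with log2 differences of 0.89 to 1.31.

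IL1B in NeuT was 35.5 and 33.1 CPM untreated and 39.1 and 48.9 CPM with JG-98, a rise of 0.36 ± 0.0963 (SE) on the log2 scale that did not pass (edgeR adjusted p = 0.0560). The untreated libraries of this comparison are among those on which IL1B was picked, so its p-values here are not independent of that choice. It passed with no filter on low counts (0.00251) and without NeuT with JG-98 replicate 1 (5.9e-04). The authors' deposited table gives 0.35 with an adjusted p of 0.0583. IL1R1 in NeuT differed by -0.24 ± 0.0730 on the log2 scale (SE; edgeR adjusted p = 0.0914), and by -0.31 without NeuT with JG-98 replicate 1, where the adjusted p was 0.0129. IL1RN, IL33, IL18, IL1R2 and IL1RAP had log2 differences between -0.12 and 0.07 in NeuT (edgeR adjusted p from 0.631 to 0.974).

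In Empty, 1 of 8 tested members was called, IL1RN, where 0.339% of all tested genes were called and 0.260% were higher. IL1RN rose by 0.37 ± 0.0732 on the log2 scale (SE; edgeR adjusted p = 0.0340). The call was lost on leaving out any of the 4 Empty libraries or either untreated NeuT library, with adjusted p-values up to 0.471, and without robust dispersion estimation (0.0546). The authors' deposited table gives 0.37 with an adjusted p of 0.0852. IL1A in Empty had a larger difference, 1.25 ± 0.211 with a 95% interval of 0.77 to 1.73, and did not pass (edgeR adjusted p = 0.0629). It passed in 9 of the 15 alternative analyses, among them scaling by total counts (0.0183) and DESeq2 (3.7e-06), and the authors' deposited table gives 1.30 with an adjusted p of 0.106. IL1B in Empty had 7 counts untreated and 13 treated, a ratio of 2.18 with an exact 95% interval of 0.810 to 6.47 that spans no change.

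The drug effect was compared between the lines with the interaction term, and 0 of 8 members were called where 0.00565% of all tested genes were (edgeR); DESeq2 and every other alternative called 0 members too. For IL1A the change in NeuT less that in Empty was -0.14 on the log2 scale, with a 95% interval of -0.70 to 0.43. At an unadjusted p under 0.05 edgeR had 2 members. They were IL1RN, at -0.34 (interval -0.55 to -0.13, adjusted p = 0.490), and IL1R1, at -0.27 (interval -0.50 to -0.05, adjusted p = 0.570). These comparisons use the same libraries as the contrasts above, so they are not independent of them.

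Other genes of the IL-1 family were read from a list of 12, of which 7 were tested. This list and those that follow were chosen with earlier results of these data known, so their line differences are not independent of that choice. Between the treated lines 4 were higher in NeuT and 1 lower, where 21.7% of all tested genes were higher and 20.0% lower, with a median log2 difference of 1.33. IL1RL1, the IL-33 receptor, was at 3.47 ± 0.187 CPM in Empty and 18.2 ± 5.31 CPM in NeuT (SD, n = 2), which is 2.39 ± 0.170 on the log2 scale (SE; edgeR adjusted p = 4.7e-08). IL18R1, the ligand-binding IL-18 receptor chain, was higher by 1.68 (edgeR adjusted p = 1.7e-04) and IL1RAPL2, an orphan relative of IL1RAP, by 1.33 (edgeR adjusted p = 5.5e-04). SIGIRR, a receptor that dampens IL-1 signalling, was lower, with a log2 difference of -0.33 (edgeR adjusted p = 0.0121), a call lost without replicate 1 of either treated group (adjusted p up to 0.105). IL18RAP, the second IL-18 receptor chain, had 2 counts over all 8 libraries.

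Of 13 genes of IL-1 receptor signalling, 11 were tested; 6 were higher in treated NeuT and 0 lower, where 41.7% of all tested genes were called and 21.7% were higher, with a median of 0.18. IRAK2, a kinase-like adaptor of the receptor complex, was at 2.67 ± 0.220 CPM in treated Empty and 16.4 ± 4.21 CPM in treated NeuT (SD, n = 2), a log2 difference of 2.60. PELI1, a ubiquitin ligase acting on IRAK proteins, was higher by 1.04 and TAB3, an adaptor of the kinase TAK1, by 0.91 (edgeR adjusted p = 2.7e-06 and 2.1e-07). With JG-98 in NeuT, where 2.01% of all tested genes rose, 3 of the 11 did: PELI1 by 0.79, IRAK2 by 0.72 and TAB2 by 0.33 on the log2 scale (edgeR adjusted p = 0.00116, 0.0130 and 0.00591). The count for NeuT was 1 on leaving out either untreated NeuT library, and PELI1 kept its call in every alternative. In Empty 0 were called by edgeR, with 1 at an unadjusted p under 0.05, and DESeq2 called 0.

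Of 14 genes for cytokine processing and release, 12 were tested; 7 were higher in treated NeuT and 0 lower, against the same 41.7% called and 21.7% higher of all tested genes, with a median of 0.48. GSDME, a pore-forming gasdermin, was higher by 2.81 on the log2 scale (edgeR adjusted p = 5.3e-09). NLRP3, the inflammasome sensor, was higher by 1.95 (edgeR adjusted p = 6.6e-05) from a low level of 0.922 ± 0.292 CPM in Empty to 3.48 ± 0.864 CPM in NeuT (SD, n = 2). CARD16, which binds caspase-1, was higher by 0.50 (edgeR adjusted p = 0.0187), a call lost without Empty with JG-98 replicate 2 or NeuT with JG-98 replicate 1 (adjusted p up to 0.144). With JG-98, edgeR called 0 of these genes in either line, with 4 in each at an unadjusted p under 0.05, and DESeq2 called 0 in Empty and 1 in NeuT. In Empty 1 was called without either NeuT library with JG-98, and in NeuT 2 were called without NeuT with JG-98 replicate 1.

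The 16 genes induced by IL-1 through NF-κB that were measured were all higher in treated NeuT, where 21.7% of all tested genes were, with a median log2 difference of 2.14 against -0.00 for all tested genes. Of them IL6 passed the filter on low counts only through NeuT, and the other 15 reached 10 counts in an Empty library. Many of them also answer to other NF-κB stimuli. The list was chosen with earlier results of these data known, so the count, the median and the p-values are a description. CSF3, the granulocyte colony-stimulating factor, was at 0.475 ± 0.00349 CPM in Empty and 32.1 ± 8.54 CPM in NeuT (SD, n = 2), a log2 difference of 6.07. TNFAIP3, the NF-κB feedback inhibitor A20, was higher by 3.54 and the neutrophil chemokine CXCL8 by 2.91 (edgeR adjusted p = 4.0e-07 and 2.9e-06).

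JG-98 raised 5 of the 16 in NeuT, where 3.01% of all tested genes were called and 2.01% were higher. PTGS2, which encodes cyclooxygenase-2, rose by 1.08, CSF3 by 1.04 and the adhesion molecule ICAM1 by 0.58 on the log2 scale (edgeR adjusted p = 0.00327, 9.7e-04 and 0.00594). In Empty, where 0.339% of all tested genes were called and 0.260% were higher, 2 of the 16 rose, the chemokines CXCL3 by 0.93 and CXCL2 by 0.65 (edgeR adjusted p = 0.0115 and 0.0336). The median over the 16 was 0.32 in NeuT and 0.16 in Empty. The NeuT count fell to 1 and 2 without untreated NeuT replicate 1 and 2, and was 9 without NeuT with JG-98 replicate 1 and 10 with no filter on low counts, while CSF3 kept its call in every alternative. The Empty count was 0 without either untreated Empty library or without Empty with JG-98 replicate 1, 1 without Empty with JG-98 replicate 2 or either untreated NeuT library, and 6 without either NeuT library with JG-98 or with no filter. In the interaction edgeR called 0 of the 16, with 4 at an unadjusted p under 0.05, and DESeq2 called 1; without NeuT with JG-98 replicate 1 edgeR called 2, and with no filter 3.

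**Figure D4:**
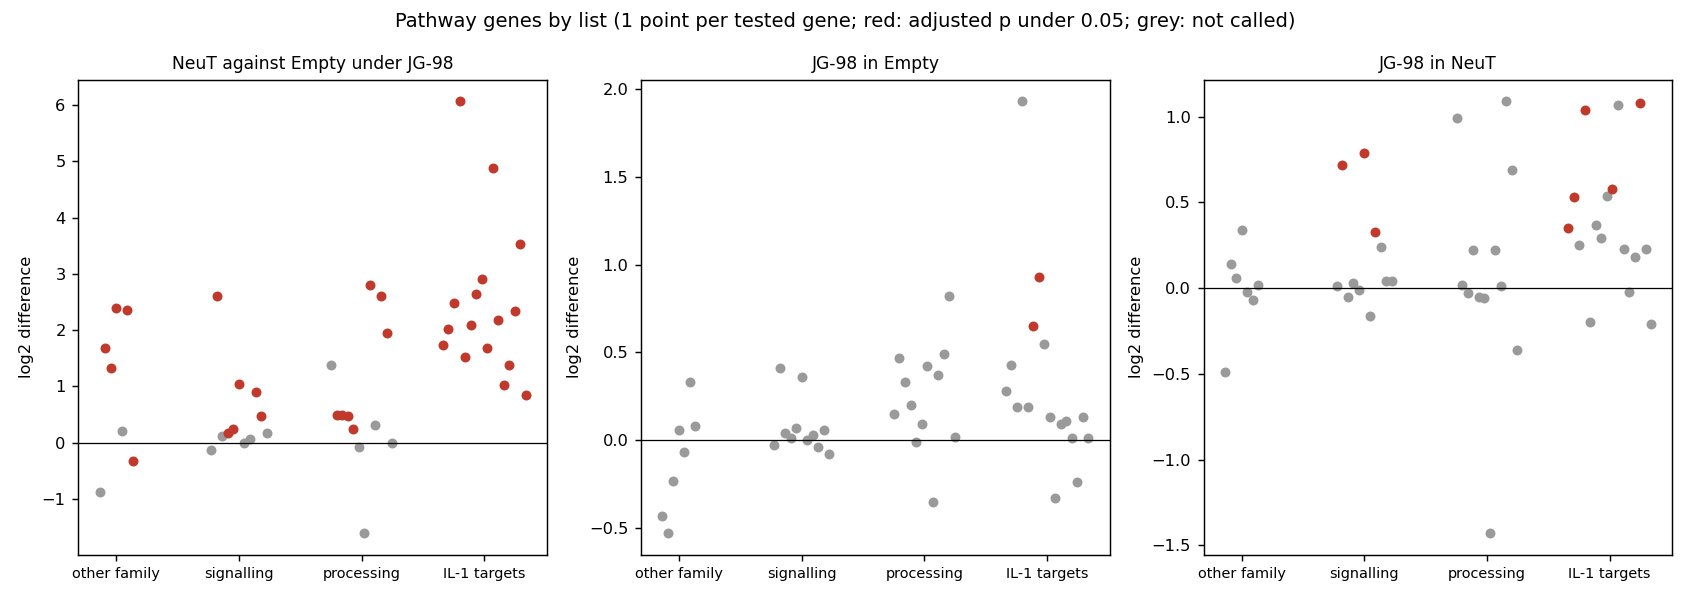
Log2 difference (y) of each tested gene of the 4 pathway lists, in 1 panel each for NeuT against Empty under JG-98, JG-98 in Empty and JG-98 in NeuT; 1 point is 1 gene, red where called, and the y axes differ in range. All 16 targets lie above 0 in the first panel, with CSF3 highest at 6.07, and few points are red in the drug panels.

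Most members lie in 2 clusters on chromosome 2, and neighbouring genes were compared between the treated lines. In the ligand cluster IL1A (ENSG00000115008) spans chr2:112773915-112784590, IL1B (ENSG00000125538) chr2:112829751-112836903 and IL1RN (ENSG00000136689) chr2:113107214-113134016, in GRCh38, with IL36G and IL36B between IL1B and IL1RN. Of 22 genes within 100 kb of this cluster, 9 were tested, where 41.7% of all tested genes were called between the treated lines. IL36RN, the IL-36 antagonist, was higher in NeuT by 2.36 on the log2 scale (edgeR adjusted p = 5.6e-05). Beyond IL1RN the genes in order were higher by 0.46 (PSD4), 2.88 (PAX8-AS1) and 2.15 (PAX8, a transcription factor gene). Their edgeR adjusted p-values were 7.0e-05, 8.4e-08 and 6.3e-08. CKAP2L, a mitotic spindle gene beside IL1A, was lower, at -0.88, and NT5DC4 was not called at -0.24 (edgeR adjusted p = 5.1e-07 and 0.512). IL37 and IL1F10 had at most 18 counts in a library.

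In the receptor cluster IL1R2 (ENSG00000115590) spans chr2:101991960-102028544 and IL1R1 (ENSG00000115594) chr2:102064544-102179874. Of 16 genes within 100 kb, 7 were tested, against the same 41.7% of all tested genes called. Along it, LINC01127 was higher in NeuT by 2.24 (edgeR adjusted p = 1.5e-04), IL1R2 by 2.50 and IL1R1 by 0.70. IL1RL2, the IL-36 receptor, was not called at 0.20 (edgeR adjusted p = 0.393), and IL1RL1 and IL18R1 were higher by 2.39 and 1.68. MAP4K4, upstream of the receptors, was higher by 0.93 (edgeR adjusted p = 5.0e-06). IL1RL1 and IL18R1 overlap on the same strand, and PAX8 overlaps its antisense PAX8-AS1, so shared reads cannot be told apart without knowing the counting rules. IL33 lies at chr9:6215786-6257983, IL18 at chr11:112143253-112164096 and IL1RAP at chr3:190514051-190659750.

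**Figure D5:**
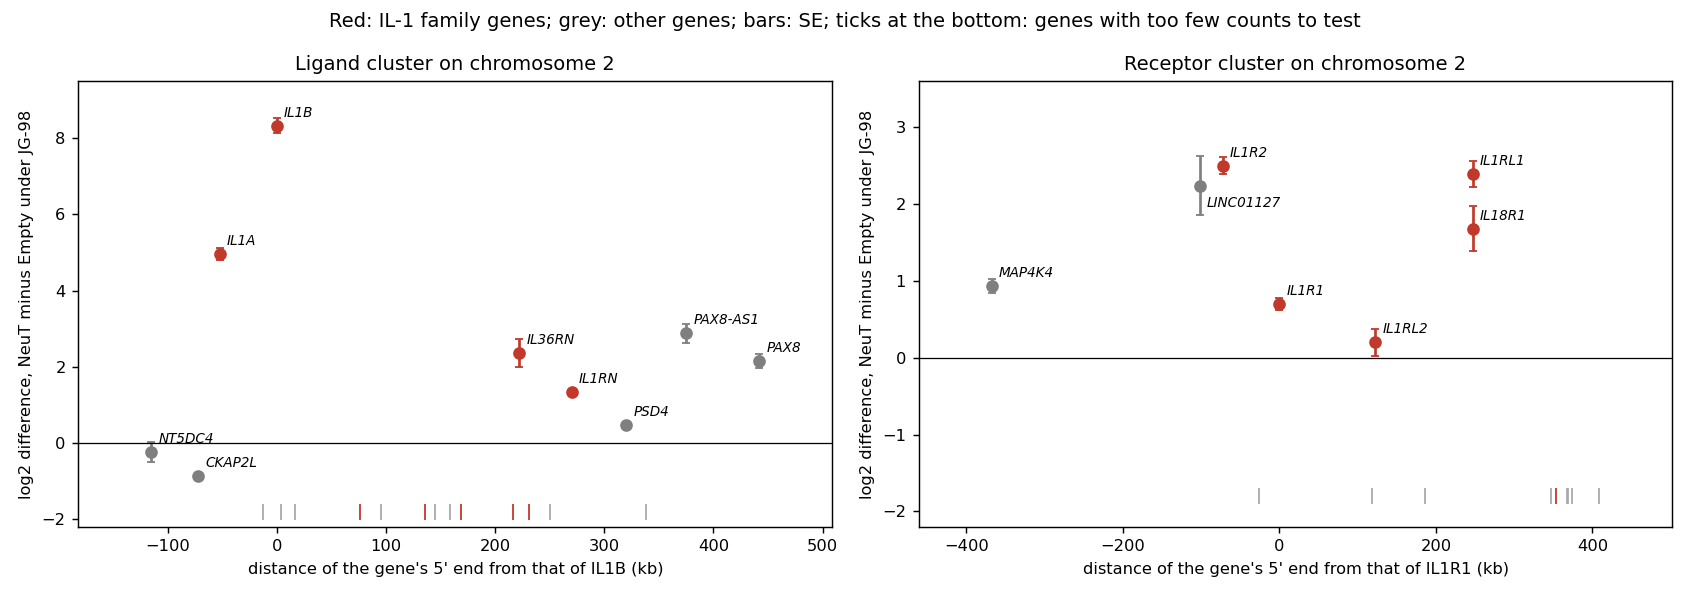
Log2 difference between treated NeuT and treated Empty (y) for tested genes of the ligand and receptor clusters against the distance of each gene's 5′ end, in kilobases, from that of IL1B or IL1R1 (x); red marks IL-1 family genes, bars are SE, and ticks at the bottom mark genes with too few counts to test. IL1B stands at 8.33 and IL1A at 4.96, next to CKAP2L at -0.88, and IL1RL2 at 0.20 lies between IL1R1 and IL1RL1.

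The genes most like IL1B over the 8 libraries, by the root mean square distance of centred log2 CPM, were HEPHL1 (0.860), CSF3 (1.04), SAMSN1 (1.16), LCE3E (1.28) and MMP1 (1.41). HEPHL1, a copper-dependent ferroxidase, had at most 2 counts in an Empty library and 5.20 to 6.64 CPM in NeuT. SAMSN1, an adaptor protein known from blood cells, was at 0.333 to 0.682 CPM in Empty and 29.1 to 41.2 CPM in NeuT. LCE3E, a late cornified envelope gene, had 0 counts in all Empty libraries and 1.47 to 2.65 CPM in NeuT, and the collagenase MMP1 had at most 2 counts in an Empty library and 2.01 to 3.48 CPM in NeuT. The distances are dominated by the difference between the lines and carry no test.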

How the data were processed

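Poly(A)-selected RNA of 8 libraries was sequenced. The authors deposited raw counts per gene with Ensembl identifiers, per the file headers. The submitters' processing notes name Trim Galore 0.5.0, FastQC 0.11.7, HISAT2 2.1.0, SAMtools 1.9, featureCounts 1.6.3, limma and GRCh38. The annotation release and the use of strand are not given in the sources used here. For each line the authors also deposited a table of log2 fold changes, mean log2 expression, scores and p-values, per the file headers.

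Samples were grouped by title. Symbols were found for 60261 of 60617 identifiers, and 1 list symbol matched no gene. Counts were fitted with edgeR 4.0.16 in R 4.3.3 (filterByExpr, minimum count 10 and total 15, 17693 genes; TMM; robust quasi-likelihood, 1 coefficient per group, all 8 libraries). Adjustment was by Benjamini-Hochberg over every tested gene, with calls at an adjusted p under 0.05. The SE is the log2 difference divided by the square root of F. Intervals of counts and the floor of 3 counts cover counting error only, as PCR copies without molecular identifiers cannot be recognised. Replicate numbers were not treated as pairs: deviations correlated at -0.103 to 0.231 over 9609 genes.

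The members and lists were chosen with earlier results of these data known. All members are named. List genes named are at most 3 called genes per list, comparison and direction with the largest difference and a mean of at least 50 counts, plus the 5 genes most like IL1B (prior count 2). Genes beside the members on chromosome 2 were named for their position, and further list genes after their values were seen. Alternatives were other size factors, no filter, DESeq2 1.42.0, no robust estimation, a replicate block, only the 4 libraries compared, and leaving out each library.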

Additional observations from a re-analysis of the deposited data

How the results depend on the processing

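The 32 tested member values were recomputed under up to 15 alternatives each, giving 469 values: 431 kept their direction and side of the threshold, 9 lost the call, 12 gained one and 17 reversed. For JG-98 in Empty, 2 members instead of 1 were called with total counts, with no filter, with DESeq2 and with only the 4 libraries compared, and 0 to 2 on leaving out 1 library. For JG-98 in NeuT, 2 were called with no filter, and 1 to 3 on leaving out 1 library, the 3 without NeuT with JG-98 replicate 1. The treated line difference of IL33 ranged from 2.34 to 6.83 on leaving out 1 library. All reversals came on leaving out 1 library, among uncalled values, and the cause was not tested. On the log2 scale the values without 1 library ranged, for JG-98 in Empty, from -2.23 to 3.79 for IL33, -0.01 to 0.07 for IL1R1, -0.23 to 0.08 for IL1R2 and -0.17 to 0.03 for IL1RAP. For JG-98 in NeuT they ranged from -0.78 to 0.37 for IL33, -0.04 to 0.16 for IL18 and -0.07 to 0.12 for IL1RN. For the interaction they ranged from -0.37 to 0.05 for IL1A, -3.88 to 2.15 for IL33, -0.16 to 0.05 for IL18, -0.20 to 0.12 for IL1R2 and -0.12 to 0.09 for IL1RAP. Over all alternatives the genes called numbered 9 to 389 in Empty, where 60 were called as reported, and 134 to 2112 in NeuT, where 533 were; the highest NeuT count came without NeuT with JG-98 replicate 1, where the interaction had 751 instead of 1. The interaction had 138 with no filter and 26 with DESeq2, and in NeuT no filter gave 1000 and the 4 libraries alone 183. With the replicate block 66 and 593 genes were called, IL1A in NeuT had an adjusted p of 0.0147 (edgeR), and the block changed no call of a member. With total counts 41.0% of calls between the treated lines were higher, against 52.0% with TMM. At these depths a gene at 0 to 12 counts shows detection only.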
